A study of Homo sapiens with 10 samples.

Results

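The libraries described here were the 5 of the series' 10 RNA-seq libraries whose label gives the group as gCtl, and they were chosen by that label alone. They came from Caco-2, an established human colon carcinoma line that forms an epithelial monolayer and takes on features of small intestinal absorptive cells. Every library in the series came from Caco-2 cells made to carry dCas9-KRAB, in which a Cas9 with no cutting activity is fused to the KRAB repressor. The cells had been cloned under puromycin, and the clone was then infected with lentivirus bearing a hygromycin resistance gene and a U6 promoter. In gCtl that plasmid was empty and encoded no guide, whereas the other libraries received a guide against the long noncoding RNA LHFPL3-AS2 and are not described here. The cells were grown in DMEM with 20% fetal bovine serum. Because the line went through selection of single clones, its expression state is that of a selected clone with a repressor protein and not of Caco-2 at large. The labels name no culture, day or batch for these libraries, so they may be technical replicates, and the replicate numbers used here only tell the libraries apart.

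The absorptive cell of the small intestine carries microvilli at its luminal face, the brush border, in which actin-bundling proteins such as villin hold up a membrane rich in hydrolases and transporters. It packages dietary fat into chylomicrons with apolipoproteins, a task it shares with the hepatocyte, which secretes the related very low density lipoproteins and most plasma proteins. Both cell types are set up by nuclear factors of the HNF, GATA and FOXA families, and the intestine is marked by CDX factors. Fetal gut and liver also express the growth factor gene IGF2 and the gene of alpha-fetoprotein, of which the latter is silenced around birth.

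Levels are given as CPM, the estimated reads of a gene for every 1000000 estimated reads in the library. The libraries were read from the 3′ end of RNA, so that a long RNA is not expected to give more reads than a short one, and CPM was not divided by length. TPM values, in which the counts were first divided by the annotated transcript length, are given where genes are set against each other. Values of a gene are listed for replicates 1 to 5 in that order, errors are SD over the 5 libraries, and no test was run since there is only 1 group. A gene was counted as detected when it reached 1 CPM in all 5 libraries. It was counted as at or under the floor when no library held more than 3 of its counts, a limit that corresponds to 0.529 to 0.781 CPM in single libraries. The floor covers counting error only.

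The cells were checked against 4 markers of intestinal epithelium, and each was present in every library. VIL1, which encodes the actin bundler villin (chromosome 2, 218419092 to 218453295, GRCh38), was measured at 161, 175, 147, 158 and 122 CPM. CDH17, which encodes the liver-intestine cadherin (chromosome 8, 94127171 to 94217303), stood at 114, 90.4, 109, 114 and 76.9 CPM. All 5 libraries lay well above the 1 CPM limit for both genes, with replicate 5 the lowest in each. APOA1, the gene of the main apolipoprotein of high density lipoprotein (chromosome 11, 116835751 to 116837950), was at 536, 508, 418, 472 and 317 CPM, again with replicate 5 the lowest. CDX2, the homeobox factor of intestinal identity (chromosome 13, 27962137 to 27971139), was at 40.9, 65.5, 42.4, 41.2 and 42.3 CPM, with replicate 2 above the other 4. The means were 152 ± 19.9 CPM, 101 ± 16.4 CPM, 450.1 ± 86.6 CPM and 46.5 ± 10.7 CPM in that order. On the opposite strand, USP37 shares exon sequence with VIL1 and was itself at a mean of 50.3 CPM, and whether the authors counted by strand is not given in the sources used here. All 4 were thus detected, and no library lacked any of them.

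The libraries held 3838803 to 5674360 estimated counts over 60554 annotated genes. Of these, 14265 were detected, among them 11479 of 19655 protein-coding genes (58.4%), and 31531 were listed at 0 in every library. The median detected protein-coding gene of the nuclear genome had a mean of 18.4 CPM. LHFPL3-AS2, the RNA targeted in the other libraries, was at 2.23 ± 1.17 CPM and rested on 4.39 to 20.7 estimated counts per library. Replicate 5 lay at the far end of the first principal component, and its values are pointed out where it decides a spread.

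The mitochondrial genome held the gene with the most counts in these libraries. The shares below are shares of counts in 3′ libraries, and they were not set against RNA amounts in the cell. MT-RNR2, the large mitochondrial ribosomal RNA, alone took 13% ± 1.17 of all estimated counts, and the 37 mitochondrial genes together took 22.1% ± 2.4. This share ranged from 18.3% in replicate 1 to 24% in replicate 3. Of the 25 most abundant genes, 12 were mitochondrial, including MT-ND2 (20017 CPM), MT-RNR1 (14682), MT-CO3 (12588), MT-ND4 (6869.8) and MT-ND5 (6866). The others were MT-ATP8, MT-ND1, MT-ATP6, MT-CO1, MT-CO2 and MT-CYB, at 2625 to 6299 CPM. These genes encode subunits of the respiratory chain and ATP synthase, apart from the ribosomal RNAs.

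Next came the noncoding loci CH507-513H4.3, CH507-513H4.4 and CH507-513H4.6 on chromosome 21, each listed at the same 29798 ± 5750.0 CPM. The values were identical in every library, so the loci cannot be told apart and only their sum can be read, which was 8.94% ± 1.72 of the counts. The sum ranged from 6.1% in replicate 2 to 10.2% in replicate 1. MALAT1, a nuclear long noncoding RNA, followed at 10508 ± 1586 CPM.

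Among protein-coding genes of the nucleus, translation led the order. The 86 ribosomal protein genes took 8.02% ± 1.1 of the counts, and 82 of them were detected. RPS27A was highest at 6332 ± 949.9 CPM, and RPL27A, RPL41, RPS3, RPL37A and RPL13A were at 2775 to 3878 CPM. EEF1A1, which encodes the elongation factor that brings aminoacyl-tRNA to the ribosome, was at 4338, 2306, 2532, 3309 and 1506 CPM, with replicate 1 the highest and replicate 5 the lowest. The remaining nuclear coding genes among the top 25 were IGF2 and FN1. Counts were concentrated in few genes, since the 10, 100 and 1000 most abundant genes of a library held 29.2% ± 2.64, 44.9% ± 1.72 and 68.1% ± 0.602 of its counts.

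**Figure D1:**
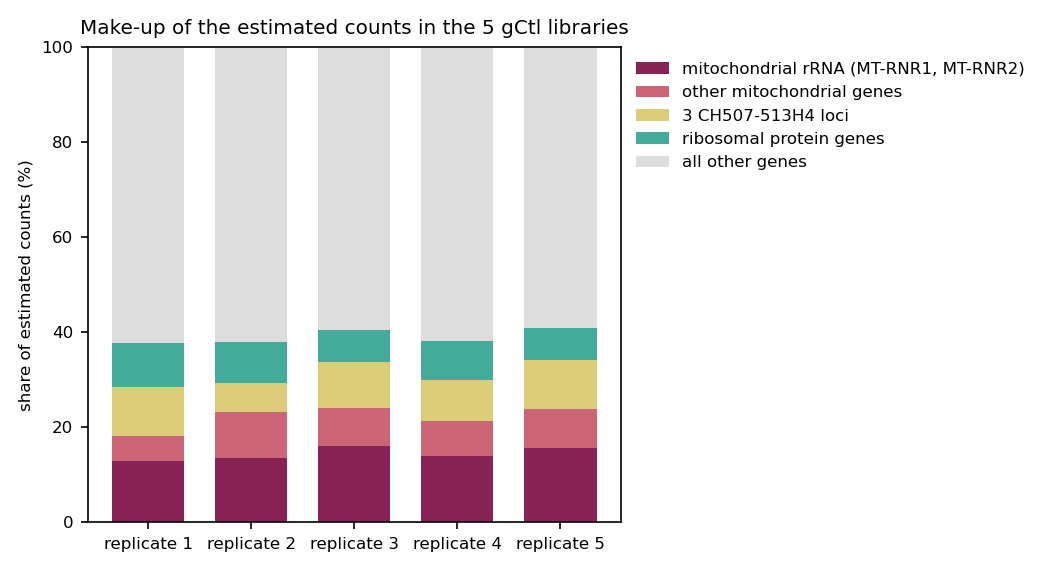
Stacked bars give the share of estimated counts (%) of each gCtl library that fell on mitochondrial ribosomal RNA, other mitochondrial genes, the 3 CH507-513H4 loci, ribosomal protein genes and all other genes. The mitochondrial part is smallest in replicate 1, at 18.3%, and the part of ribosomal protein genes is smallest in replicates 3 and 5.

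The intestinal epithelial program was broadly expressed. Of 24 intestinal epithelium markers, 21 were detected (87.5%, against 58.4% of all protein-coding genes), and their summed level was 3049 ± 368 CPM. The most abundant were the adhesion molecule gene EPCAM (747 ± 70.9 CPM) and the keratin genes KRT18 (507 ± 149.5 CPM), KRT19 (330.1 ± 65.8 CPM) and KRT8 (234 ± 80.6 CPM), the simple-epithelium intermediate filaments, together with APOA1 and VIL1. KRT18 and KRT8 share exon sequence on opposite strands. CDH1, the gene of E-cadherin, was at 145 ± 20.8 CPM, and the tight junction genes CLDN4 and CLDN7 were at 74.6 and 60.1 CPM. The program was not complete, since the tight junction gene CLDN3 had a mean of 1.13 CPM, the antigen gene CEACAM5 1.8 CPM and GPA33, which encodes the A33 antigen of intestinal epithelium, 0.106 CPM, with GPA33 at or under the floor. LGALS4 and KRT20, genes of mature enterocytes, were detected but low, at 2.4 and 2.81 CPM. The summed level was lowest in replicate 5, at 2471 CPM against 2912 to 3385 CPM in the other 4 libraries. The tetraspanin gene TSPAN8 was at 45.8, 29.1, 23.6, 38.2 and 5.82 CPM, with replicate 5 under the other 4.

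Nuclear factors of gut and liver were detected in 26 of 39 cases (66.7%, against 58.4% of all protein-coding genes), with a summed level of 1063 ± 44.6 CPM that varied by 4.2% (CV) between libraries. HNF4A, a nuclear receptor of hepatocytes and enterocytes (chromosome 20, 44355700 to 44434596), was the most abundant and was measured at 179, 131, 149.8, 182 and 125 CPM, with replicates 1 and 4 above the other 3. KLF5, a factor of crypt cells, was at 140.1 ± 12.3 CPM, TCF7L2, the partner of beta-catenin, at 100.5 ± 12.2 CPM, and ELF3, an epithelial ETS factor, at 93.8 ± 9.29 CPM. GATA6, a zinc-finger factor of the gut, was at 67.8 ± 7.28 CPM and TBX3, a T-box factor, at 65.1 ± 11.2 CPM. These levels lay above the median of detected coding genes in every library. FOXA2 (55 CPM) and FOXA1 (20.4 CPM) were detected as well.

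Several close relatives of these factors were nearly absent. GATA4, a relative of GATA6, had 0.285 CPM, CDX1 0.050 CPM and ONECUT1 0.232 CPM. The order within each family was the same in TPM, with 0.25 TPM of GATA4 against 23.1 of GATA6 and 0.0482 of CDX1 against 14.7 of CDX2. CDX1 and GATA4 were at 0 and 0.521 CPM in replicate 1, and in no library did either pass 0.902 CPM. The endoderm factor gene SOX17 and NR1I2, the gene of the xenobiotic receptor PXR, were listed at 0 in every library, while NR1I3, the related receptor CAR, was at 51.6 ± 5.01 CPM. NR1I3 shares exon sequence with TOMM40L on the other strand, which had a mean of 6.64 CPM.

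The structural genes of the brush border were detected far more often than its digestive enzymes. Of 15 structural genes, 14 were detected (93.3%, against 58.4% of all protein-coding genes), at a sum of 714 ± 29.6 CPM. EZR, which encodes the membrane linker ezrin, was at 223 ± 25.6 CPM, followed by VIL1, and by BAIAP2L1 and EPS8, whose products act on actin at microvillus tips, at 61.1 and 59.5 CPM. The scaffold genes SLC9A3R1, USH1C and PDZK1 were at 46.3, 46 and 44.2 CPM. The exception was MYO7B, a myosin of the tip complex, at 0.0882 CPM.

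Of 18 brush border hydrolases, 4 were detected (22.2%, against 58.4% of all protein-coding genes). Another 9 were above the floor but under 1 CPM in some library, and 5 were at or under the floor. The sum of the list was 119 ± 10.6 CPM. The peptidase gene DPP4 was at 67.7, 78.4, 77.4, 68.5 and 78.6 CPM and held 62.3% of that sum, and its libraries differed little. TREH, the gene of trehalase, was at 24.6, 37.4, 29.2, 36.1 and 31.4 CPM, and it shares exon sequence with PHLDB1 on the other strand (13.3 CPM). The other members were at or below 2.69 CPM. GGT1 and FOLH1 were at 2.69 and 2.04 CPM, MEP1A and ENPEP at 1.62 and 1.26 CPM. The classical markers of differentiated Caco-2 monolayers were low or absent, with 0.0721 CPM of SI (sucrase-isomaltase), 0.488 of ALPI (intestinal alkaline phosphatase), 0.431 of ANPEP (aminopeptidase N) and 1.08 of LCT (lactase). SI had 0, 0, 0.361, 0 and 0 CPM, so that a single library held any reads of it. The authors describe their experiments as done at an intermediate state of differentiation, at which they report SI raised over its baseline. The labels give no day for these libraries, and how their SI level relates to that report was not tested. MEP1B, the gene of meprin beta, was listed at 0 in every library.

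Enterocyte transporters were detected in a share not far from that of all protein-coding genes (58.4%). Of 26 genes, 13 were detected (50%). The list summed to 347 ± 21.2 CPM, and 42.6% of it came from SLC46A1, the proton-coupled folate transporter, at 148 ± 22.4 CPM. SLC19A3, a thiamine transporter, was at 47.9 ± 6.23 CPM. Genes of iron transport were among the more abundant, with the importer SLC11A2 at 39.2 ± 3.35 CPM, the ferroxidase HEPH at 32 ± 3.46 CPM and the exporter ferroportin, SLC40A1, at 30.3 ± 8.26 CPM. AMN, part of the vitamin B12 receptor, was at 9.79 ± 2.18 CPM. The sodium-glucose transporter gene SLC5A1 was at 1.42 CPM, the bile acid transporter SLC10A2 at 0.173 and the chloride-bicarbonate exchanger SLC26A3 at 0.499. SLC9A3, the sodium-proton exchanger of the brush border, was listed at 0 in every library although its scaffold SLC9A3R1 was detected.

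Genes of fat absorption and lipoprotein assembly were mostly detected, and a few apolipoproteins were abundant. Of 24 members 20 were detected (83.3%, against 58.4% of all protein-coding genes). The list summed to 2448 ± 201 CPM, of which APOB made up 47.5%. The median member was at 19.9 CPM, close to the median of all detected nuclear coding genes. APOB, which encodes the structural protein of chylomicrons and of very low density lipoproteins, was at 938, 967, 1505, 1013 and 1395 CPM and was higher in replicates 3 and 5 than in the other 3 libraries. APOA1 went the other way in replicate 5, so that the ratio of APOB to APOA1 ran from 1.75 in replicate 1 to 4.41 in replicate 5. Between these genes the scale mattered, since APOB was the higher in CPM and APOA1 in TPM (620.0 against 107). APOA2, a further high density lipoprotein gene, was at 214 ± 36.5 CPM, and APOC3, an inhibitor of lipoprotein lipase, at 81.4 ± 21.8 CPM. The acyltransferase gene DGAT1 (89.6 ± 4.39 CPM), which makes triglyceride, and the lipoprotein receptor gene SCARB1 (86.9 ± 13.4 CPM) completed the 6 most abundant. MTTP, whose product loads lipid onto APOB, was at 19.7 ± 3.2 CPM. APOA4, which lies in the same gene cluster as APOA1 and APOC3, was at 0.11 CPM, and the intestinal acyltransferase MOGAT2 at 0.143 CPM. The fatty acid binding protein genes FABP1 and FABP2 were detected at 16.5 and 7.19 CPM.

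**Figure D2:**
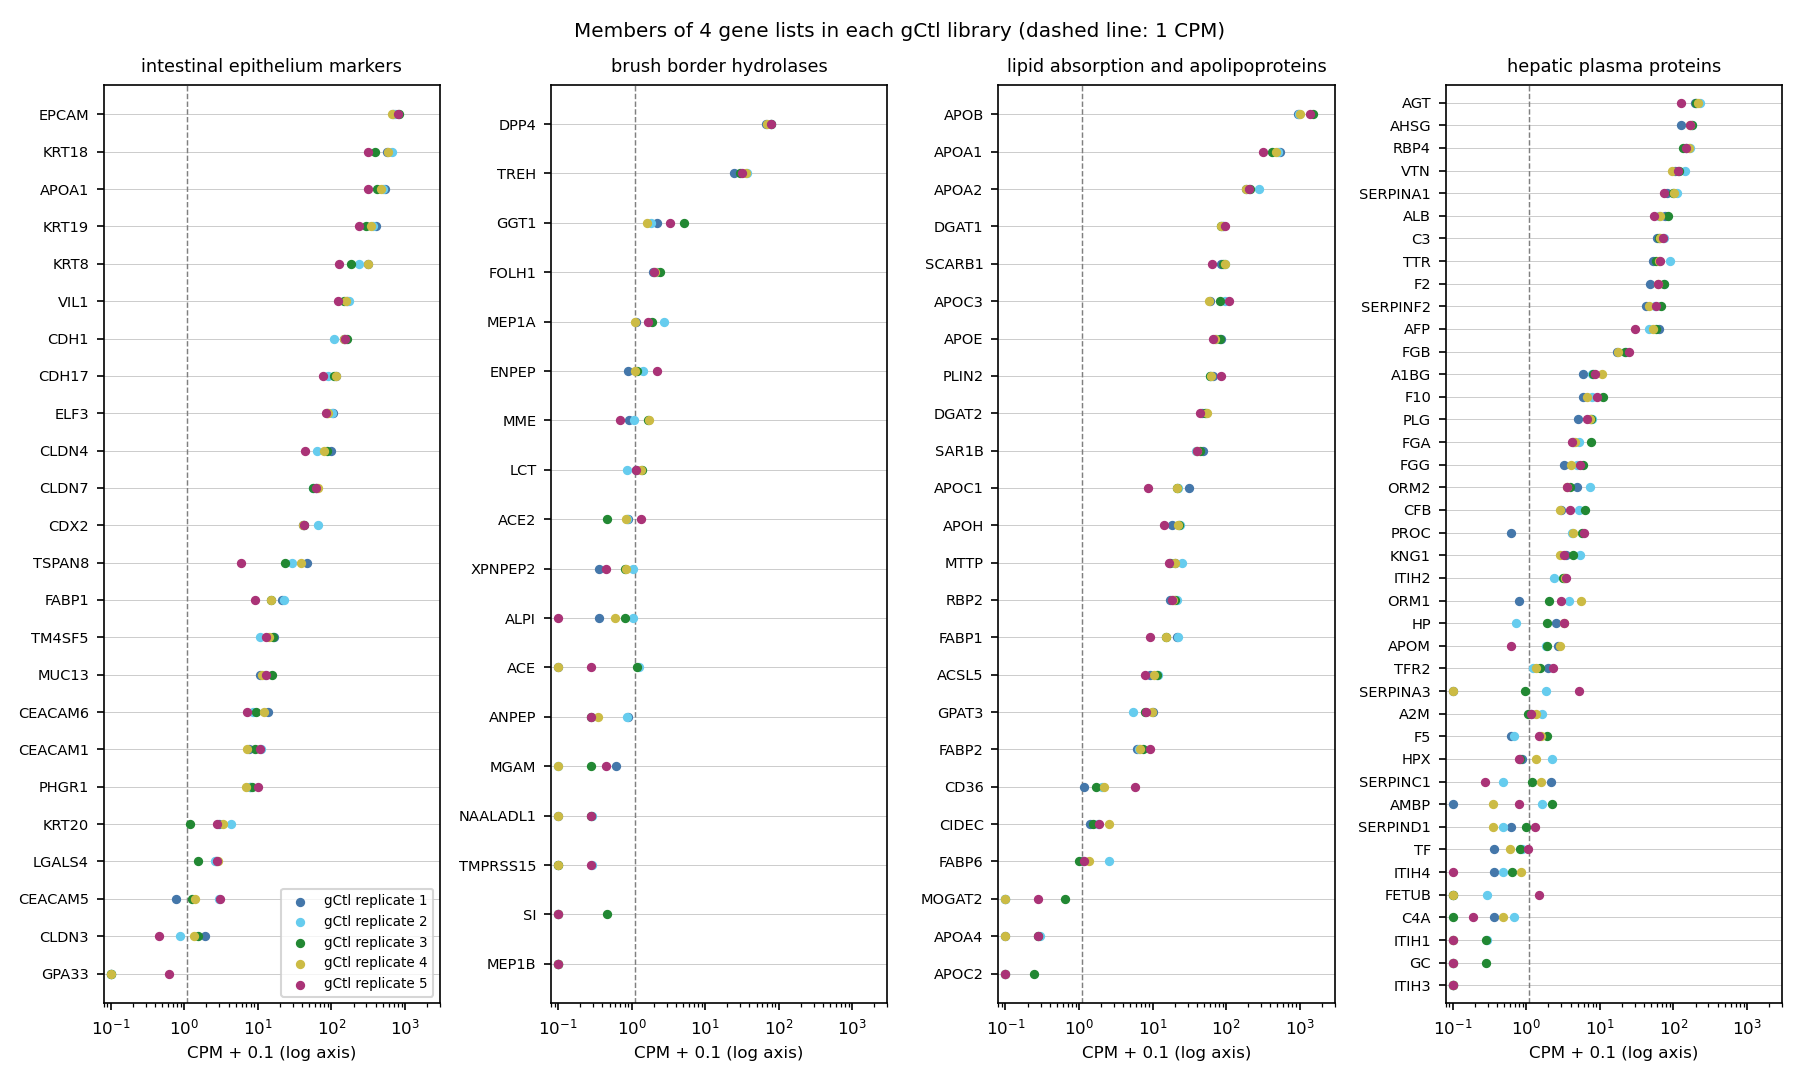
Each row is a gene of the list named above the panel, ordered by mean level, and the 5 points are the gCtl libraries on a log axis of CPM plus 0.1, with a dashed line at 1 CPM. Most intestinal, lipid and leading plasma protein genes lie to the right of the line in all libraries, while below DPP4 and TREH the hydrolases lie near or left of it.

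Some genes of hepatocyte plasma proteins were expressed beside the intestinal ones. Of 40 genes of plasma proteins made by the liver, 22 were detected (55%, close to the 58.4% of all protein-coding genes). The list summed to 1182 ± 115 CPM. AGT, the gene of angiotensinogen, was at 196, 229, 203, 215 and 128 CPM, and AHSG, the gene of fetuin-A, at 125, 180.0, 182, 167 and 169.9 CPM. Replicate 5 was the lowest library for AGT and replicate 1 for AHSG. RBP4 and VTN, which encode the plasma retinol carrier and vitronectin, were at 152 ± 14.3 CPM and 115 ± 17.5 CPM, and SERPINA1, the gene of alpha-1 antitrypsin, at 93.8 ± 16 CPM. ALB, the albumin gene, was at 77.6, 64.6, 85.3, 65 and 53.9 CPM. Its fetal counterpart AFP was at 63.3, 46.2, 58.8, 52 and 30.3 CPM. For both genes replicate 5 was the lowest, and their means lay within 1.5 times of each other in CPM (69.3 and 50.1) and in TPM (56 and 58.2). Other members were low or absent. TF (transferrin) was at 0.64 CPM, HP (haptoglobin) at 2.25 CPM and GC (vitamin D binding protein) at 0.0361 CPM. ITIH3, of the inter-alpha-trypsin inhibitor family, was listed at 0.

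The metabolic side of the hepatocyte was expressed at low levels. Of 30 liver enzymes and bile acid genes 12 were detected (40%, against 58.4% of all protein-coding genes), 8 were low and 10 were at or under the floor. The list summed to 189 ± 12 CPM, of which GLUL, the glutamine synthetase gene, made up 50.2% at 95.1 ± 5.72 CPM. The remaining detected genes were low, such as the alcohol dehydrogenase ADH4 (17.8 CPM), the tyrosine catabolism genes FAH (13.9 CPM) and TAT (9.51 CPM), CYP1A2 (8.89 CPM) and the urea cycle gene ASS1 (8.76 CPM). CYP7A1, the rate-limiting enzyme of bile acid synthesis, and ADH1A were listed at 0 in every library. ARG1 and FBP1, of the urea cycle and of gluconeogenesis, were at 0.283 and 0.201 CPM.

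Genes of drug handling, which Caco-2 cells are often used to study, were more widely expressed, with a sum of 1465 ± 51 CPM. Of these genes, 18 of 24 were detected (75%, against 58.4% of all protein-coding genes). GSTP1, a glutathione transferase, was at 497 ± 28.2 CPM, SLC16A1, a monocarboxylate transporter, at 323 ± 30.3 CPM, and NQO1, a quinone reductase, at 165 ± 34.1 CPM. The efflux pump genes ABCB1, encoding P-glycoprotein, and ABCC2 were at 46.6, 56.5, 123, 65.5 and 105 CPM and at 61.2, 58.9, 95.6, 64.5 and 96.4 CPM. For both pumps replicates 3 and 5 were above the other 3 libraries. Of the carboxylesterases, CES2, the intestinal one, was at 55.8 CPM and CES1, the hepatic one, at 5.96 CPM, and the order held in each library and in TPM (18.2 and 6.08). Of the CYP3A enzymes, CYP3A5 was at 36.4 ± 5.32 CPM and CYP3A4, the main one of adult liver and gut, at 0.219 CPM. Only 2.39% of the CYP3A5 counts were assigned to transcripts annotated as coding. UGT2B17 and NAT2 were listed at 0 in every library.

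Promoters were read for several short motifs. The letters that the HNF4 receptors are known to bind come first, since HNF4A led the nuclear factors. The windows are the RefSeq promoters of build GRCh38.p14, from 250 bases before to 50 after each start, and 16 of the 22 detected plasma protein genes had 1. The HNF4 motif searched was CAAAGTCCA, on both strands. It was found for 2 of these genes, AHSG and F10, and for 129 of all 27305 genes with a window (0.472%). Of the 9248 detected genes with a window, 49 held it (0.53%). In the brush border list 3 of 9 detected genes with a window held it, PDZK1, MISP and MYO1A. So did 1 of 3 hydrolases (TREH), 1 of 13 intestinal markers and 1 of 12 drug handling genes, counted in the same way. It was found for none of the detected lipid genes, transporters, liver enzymes or transcription factors with a window, which were 14, 12, 7 and 19 in number. A match is a description of the letters and not a bound site. A window each of AHSG, TREH and PDZK1 is shown 5′ to 3′ because they place these letters in front of genes expressed here, a plasma protein, a hydrolase and a scaffold of the brush border, with the motif or its reverse complement TGGACTTTG in capitals. They lie at chr3:186612810-186613109, plus strand, chr11:118679601-118679900, minus strand and chr1:145707319-145707618, minus strand.
AHSG: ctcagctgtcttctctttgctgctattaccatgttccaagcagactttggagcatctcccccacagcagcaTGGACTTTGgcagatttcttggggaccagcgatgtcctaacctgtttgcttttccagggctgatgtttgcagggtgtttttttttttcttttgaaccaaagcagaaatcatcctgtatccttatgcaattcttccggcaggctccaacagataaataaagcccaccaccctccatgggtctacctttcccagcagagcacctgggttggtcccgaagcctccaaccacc
TREH: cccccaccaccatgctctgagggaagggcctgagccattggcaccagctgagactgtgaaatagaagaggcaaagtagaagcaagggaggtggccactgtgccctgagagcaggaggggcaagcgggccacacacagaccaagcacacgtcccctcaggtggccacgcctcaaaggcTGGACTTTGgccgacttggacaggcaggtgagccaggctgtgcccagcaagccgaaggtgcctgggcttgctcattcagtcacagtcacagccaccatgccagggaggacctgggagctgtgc
PDZK1: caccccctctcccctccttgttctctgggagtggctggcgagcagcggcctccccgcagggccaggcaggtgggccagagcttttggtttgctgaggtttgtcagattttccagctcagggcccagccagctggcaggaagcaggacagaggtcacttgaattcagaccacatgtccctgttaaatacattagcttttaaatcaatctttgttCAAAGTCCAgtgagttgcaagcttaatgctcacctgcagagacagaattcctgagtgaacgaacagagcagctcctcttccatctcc

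Counted from the start site, the matches lay at positions -179 to -171 in AHSG, -73 to -65 in TREH and -37 to -29 in PDZK1. The HNF1 motif GTTAATNAT was in 4 of 16 detected plasma protein genes with a window, in 0.963% of all genes and in 0.822% of detected ones. Among other detected genes with a window, it was in 1 of 9 brush border, 1 of 14 lipid and 1 of 12 transporter genes. No detected liver enzyme, transcription factor or intestinal marker with a window held it. The CDX motif TTTATNG was in 3 of 13 detected intestinal marker genes with a window, in 11.9% of all genes and in 8.61% of detected ones. It can overlap the TATA box motif TATAAA, which was in 3 of those 13, in 14% of all genes and in 8.52% of detected ones. The GATA motif AGATAA was in 8 of 14 detected lipid genes with a window, in 12.4% of all genes and in 8.07% of detected ones. These lipid genes had 25 windows between them, and a gene with several windows has more room for a match.

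Fetal and oncofetal genes reached a sum of 6796 ± 1175 CPM with 16 of 25 detected (64%, not far from the share of all protein-coding genes), and IGF2 held 72.7% of it. IGF2, a growth factor gene of fetal tissues (chromosome 11, 2129112 to 2149603), was the 2nd most abundant nuclear protein-coding gene in CPM, at 3245, 5755, 4828, 4501 and 6360.1 CPM. Replicate 1 was the lowest and replicate 5 the highest, and the list's sum followed the same order. In TPM the gene was at 1395 and ranked 66 over all genes, against 15 in CPM. The noncoding AC132217.4, which overlaps it on the same strand, was at 694 ± 76.7 CPM. Without IGF2 the list summed to 1858 ± 68.3 CPM.

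The other leading fetal genes included all 3 genes of the IGF2 mRNA-binding proteins. IGF2BP1 was at 363 ± 28.1 CPM, IGF2BP2 at 236 ± 23.7 CPM and IGF2BP3 at 59.1 ± 6.06 CPM. PEG10, an imprinted gene of retroviral origin, was at 519.9 ± 69.6 CPM, CLU, the gene of clusterin and a marker of regenerating gut epithelium, at 246 ± 35.6 CPM, and GPC3, the glypican of fetal liver, at 89.7 ± 16 CPM. SALL4, HMGA2 and LIN28B, regulators of embryonic cells, were at 85.6 ± 4.69 CPM, 83.7 ± 20.3 CPM and 33.5 ± 3.98 CPM. Other fetal genes were not detected, and H19, the noncoding RNA next to IGF2, was at 1.56, 0.192, 0.18, 0 and 0 CPM, so that replicate 1 held most of its few reads. The imprinted genes DLK1 and PEG3 were listed at 0 in every library.

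Genes of the crypt and of Wnt signalling were detected for 20 of 25 members (80%, against 58.4% of all protein-coding genes). The list summed to 722 ± 49.5 CPM. SOX9, a factor of crypt progenitors, was at 153 ± 15.8 CPM, and EPHB2, the receptor that positions cells along the crypt, at 113 ± 19.8 CPM. AXIN2, a feedback inhibitor and target of Wnt signalling, was at 40.9, 55.8, 59.9, 48.7 and 99.9 CPM, with replicate 5 above the rest. ASCL2, a master factor of intestinal stem cells, was at 59.6 ± 6.49 CPM, RNF43, a ubiquitin ligase that removes Wnt receptors, at 59 ± 4.99 CPM, and the feedback gene NKD1 at 41.1 ± 3.88 CPM. The stem cell receptor gene LGR5 was detected at 7.07 CPM, whereas OLFM4, another stem cell marker, was at 1.11 CPM and TERT, the telomerase gene, was listed at 0 in every library. RNF43 shares exon sequence with the equally abundant SUPT4H1 on the same strand.

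Dividing cells were plainly represented. All 20 proliferation genes were detected (100%, against 58.4% of all protein-coding genes), and they summed to 3379.7 ± 476 CPM. TOP2A, the DNA topoisomerase of dividing cells, was at 1354, 1625, 1022, 1517 and 1231 CPM, and MKI67, the gene of the Ki-67 antigen, at 507, 693, 495, 641 and 534 CPM. For both genes replicates 2 and 4 were the highest, and replicate 3 had the lowest sum of the list at 2747 CPM. AURKA, MCM7, CCNB1 and MCM4 were at 257, 165, 160.1 and 136 CPM.

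The HOX genes, which mark position along the body axis, were on in 3 of the 4 clusters. Of 39 HOX genes 20 were detected (51.3%, not far from the 58.4% of all protein-coding genes). HOXA genes were detected for 9 of 11 members, at a sum of 101 ± 6.93 CPM, led by HOXA7 (28.6 ± 3.19 CPM), HOXA9 (18.1 ± 1.71 CPM) and HOXA10 (15 ± 2.79 CPM). HOXB genes were detected for 4 of 10, led by HOXB7 (25.1 ± 5.51 CPM), at a sum of 51.8 ± 7.79 CPM. HOXC genes were detected for 7 of 9, led by HOXC8 (22.2 ± 1.54 CPM) and HOXC6 (19.5 ± 2.25 CPM), at a sum of 69.7 ± 6.14 CPM. In contrast, none of the 9 HOXD genes was detected. They had 8 estimated counts over all 5 libraries, and 6 of them, HOXD1, HOXD3, HOXD4, HOXD10, HOXD12 and HOXD13, were listed at 0 throughout, as was HOXB1. HOXA13, a gene of the hindgut, was at 7.38 ± 0.896 CPM, and HOXB13, another, at 1.2 CPM and not detected. Several HOX genes share exon sequence with neighbours, so that the level of a single gene is less certain than that of its cluster.

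**Figure D3:**
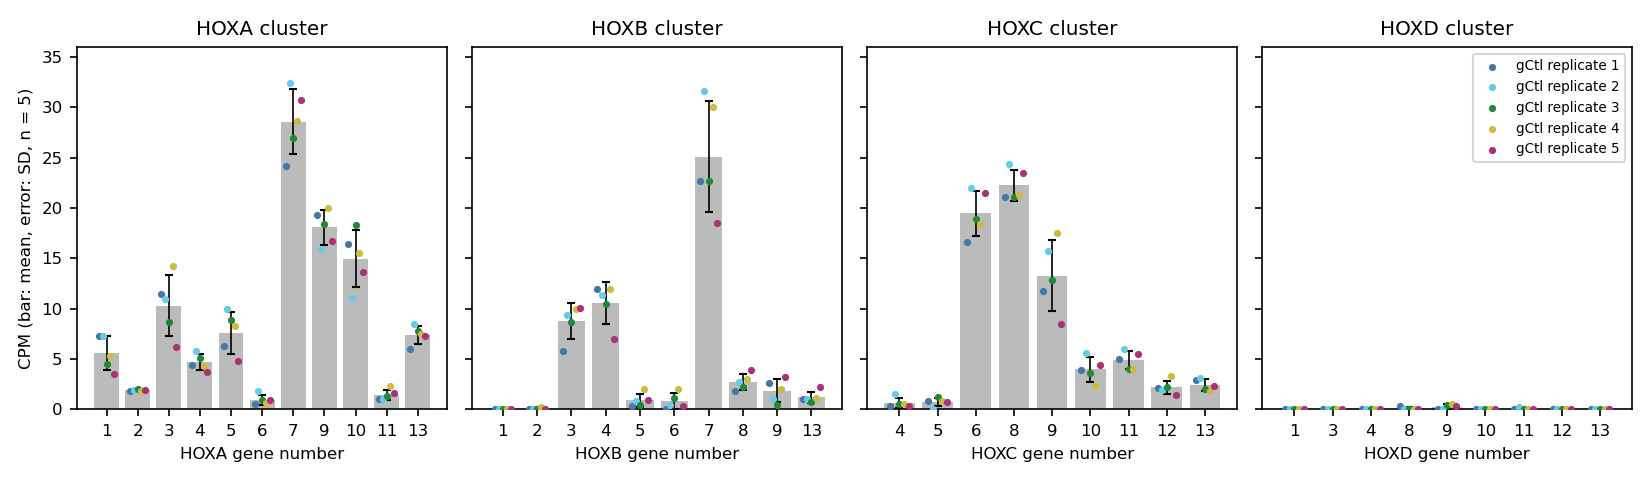
Bars give the mean CPM of each HOX gene in the 5 gCtl libraries with SD as error bars, and points give the single libraries. Genes 7 to 10 of HOXA, 7 of HOXB and 6 to 9 of HOXC stand highest, and the panel of the HOXD cluster is empty at this scale.

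Secretory cell types of the gut were represented by single genes rather than by programs. Of 12 goblet cell genes 4 were detected (33.3%, against 58.4% of all protein-coding genes). AGR2, the disulfide isomerase of mucus-making cells, was at 419, 295, 245, 324 and 171 CPM, the trefoil factor gene TFF3 at 67.1 ± 7.97 CPM, ZG16 at 3.55 ± 1.39 CPM and REP15 at 2.43 ± 1.09 CPM. The levels of AGR2 ran in the order of replicates 1, 4, 2, 3 and 5. The mucin gene MUC2 was at 0.0736 CPM, CLCA1 at 0.253 and KLK1 at 0.208, and the secretory master factor ATOH1 and RETNLB were listed at 0. The levels of AGR2 and TFF3 thus came without the mucin that defines the goblet cell. Of 10 Paneth cell genes 3 were detected (30%). These were SPINK1, a trypsin inhibitor, at 106 ± 23.8 CPM, LYZ, the lysozyme gene, at 14.3 ± 4.42 CPM and PLA2G2A at 4.35 ± 0.904 CPM. PRSS2, MMP7 and ITLN2 were at 1.89, 0.461 and 0.16 CPM, and the alpha-defensin genes DEFA5 and DEFA6 were listed at 0. Only 36.1% of the SPINK1 counts were on transcripts annotated as coding, and LYZ shares exon sequence with an antisense RNA.

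The enteroendocrine list had a sum of 19.9 ± 4.65 CPM, with 4 of 20 members detected (20%, against 58.4% of all protein-coding genes). These were PAX6 (6.67 CPM), NEUROD1 (5.5), TPH1 (2.39) and CHGB (2.0), with SCGN at 1.23 and SCG2 at 0.405. CHGA, the chromogranin gene that defines these cells, was at 0.20 CPM, and NEUROG3, SST, CCK and INSM1 were listed at 0. Tuft cell genes were detected in 3 of 10 cases (30%), SH2D6, GFI1B and AVIL, at 2.39 to 11.7 CPM. DCLK1, POU2F3 and HPGDS were at 0.159 to 0.511 CPM, and TRPM5 and HTR3E were listed at 0. Of 8 genes of BEST4 and M cells 3 were detected (37.5%), NOTCH2NL, TNFAIP2 and SPIB, at 6.5 to 23 CPM. GP2, CCL20 and BEST4 were at 0.126 to 1.41 CPM, and CA7 and OTOP2 were listed at 0.

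Although the line was taken from the colon, the genes of the mature colonocyte were largely silent. Of 18 colonocyte genes 6 were detected (33.3%, against 58.4% of all protein-coding genes). The list summed to 45.6 ± 5.64 CPM, of which BTNL8 made up 48.2% at 22 ± 4.98 CPM. CA1, B3GALT5, CA2 and GUCA2A were at 2.79 to 5.09 CPM. MS4A12, CEACAM7, PRAC1, AQP8, MUC12 and TMIGD1 were listed at 0 in every library. Gastric genes were detected in 3 of 12 cases (25%), TFF1 at 8.04 ± 3.31 CPM, TFF2 at 4.82 ± 2.53 CPM and SOX2 at 4.47 ± 1.21 CPM. CLDN18, MUC5AC and MUC6 were at 0.473 to 1.62 CPM, and GKN1, GKN2, ATP4A and ATP4B were listed at 0. Pancreatic genes were detected in 2 of 10 cases (20%), CPB1 and PRSS1 at 2.61 and 2.19 CPM. IAPP, CELA3A and CPA1 were at 0.0705 to 0.274 CPM, and PNLIP, AMY2A, CTRB1, INS and PTF1A were listed at 0.

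Markers of cell types outside the gut epithelium were absent or rested on 1 or a few genes. Blood lineages were missing. Immune genes were detected in 2 of 20 cases (10%, against 58.4% of all protein-coding genes). These were CD3G at 7.24 ± 2.58 CPM and CD14 at 3.25 ± 0.712 CPM, whereas LCP1, CSF1R, CD8A and IL7R were at 0.364 to 1.28 CPM. The pan-leukocyte gene PTPRC was at 0.16 CPM, and CD2, NKG7, FCGR3A, TYROBP and SPI1 were listed at 0. No erythroid gene was detected, with HBG2 and ALAS2 at 0.635 and 0.153 CPM and HBB, HBA1, HBA2, HBD, HBE1, HBG1, GATA1 and KLF1 at 0. Of 12 endothelial genes only PECAM1 was detected (8.33%), at 2.95 ± 0.516 CPM. ESAM, EGFL7, FLT1, TIE1 and CDH5 were at 0.106 to 2.55 CPM, and VWF, ERG, CLDN5, TEK and MMRN1 were listed at 0.

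The list of fibroblast and smooth muscle genes summed to 3011 ± 225 CPM, but 98% of it was FN1. FN1, the gene of fibronectin (chromosome 2, 215360440 to 215436172), was at 2868, 2687, 3276, 2947 and 2982 CPM. It was the 7th most abundant nuclear protein-coding gene in CPM, and its 5 libraries lay close together, with a CV of 7.25%. In TPM it was at 486 and ranked 197. The intermediate filament gene of mesenchyme, VIM, was at 0.409 CPM, and the collagen gene COL3A1 at 0.194 CPM, both under 1 CPM. The other detected members were MYH11 (22.3 CPM, sharing exon sequence with NDE1), PDGFRA (20.00), COL1A1 (5.26) and COL6A3 (4.82, with 11.9 in replicate 3). CNN1 was at 1.69 CPM, and POSTN was listed at 0.

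Of the neuronal and glial genes 4 of 15 were detected (26.7%, against 58.4% of all protein-coding genes). These were MBP at 23.1 ± 1.76 CPM, UCHL1 at 21.1 ± 2.49 CPM, RBFOX3 at 10.3 ± 1.5 CPM and SYP at 5.67 ± 1.73 CPM. S100B and ELAVL3 were at 0.921 and 0.665 CPM, and ELAVL4, GAP43, STMN2, NEFL and SOX10 were listed at 0. The UCHL1 counts fell on transcripts annotated as noncoding. Striated muscle had 1 detected gene of 14 (7.14%), TNNT2 (5.95 CPM), which shares exon sequence with the more abundant LAD1. MYOG and NPPB were at 0.783 and 0.645 CPM, and CKM, ACTA1, MYOD1, MYH1, MYH2, MYH6, MYH7, TNNT3, NPPA, MYL2 and ACTC1 were listed at 0. Squamous epithelium had KRT10 at 5.83 ± 3.22 CPM, with DSG3, DSC3, TP63, SPRR1B and IVL at 0.0383 to 1.96 CPM and KRT1, KRT5, KRT6A, KRT14 and LOR at 0.

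Germ line and pluripotency genes gave the largest sum among these other lineages apart from FN1, at 129.6 ± 39.7 CPM. Of these genes, 4 of 9 were detected (44.4%, against 58.4% of all protein-coding genes). DPPA4 was at 81.4, 35.7, 137, 88.5 and 45 CPM, with replicate 3 the highest, and none of its counts fell on a transcript annotated as coding. SYCP3 was at 39.8 ± 3.95 CPM, and it overlaps CHPT1 on the other strand. NANOG was at 8.13 ± 1.98 CPM and POU5F1 at 3.26 ± 1.14 CPM, while TDGF1 and DDX4 were at 0.943 and 0.0767 CPM and DAZL, MAGEA4 and PRAME were listed at 0. Of 12 genes of lung, kidney and thyroid, only PAX8 was detected (8.33%), at 9.34 ± 2.77 CPM, overlapping the more abundant PAX8-AS1. SFTPB, PAX2, SLC12A1 and TG were at 0.0767 to 0.744 CPM, and SFTPC, NKX2-1, SCGB1A1, AQP2 and UMOD were listed at 0.

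**Figure D4:**
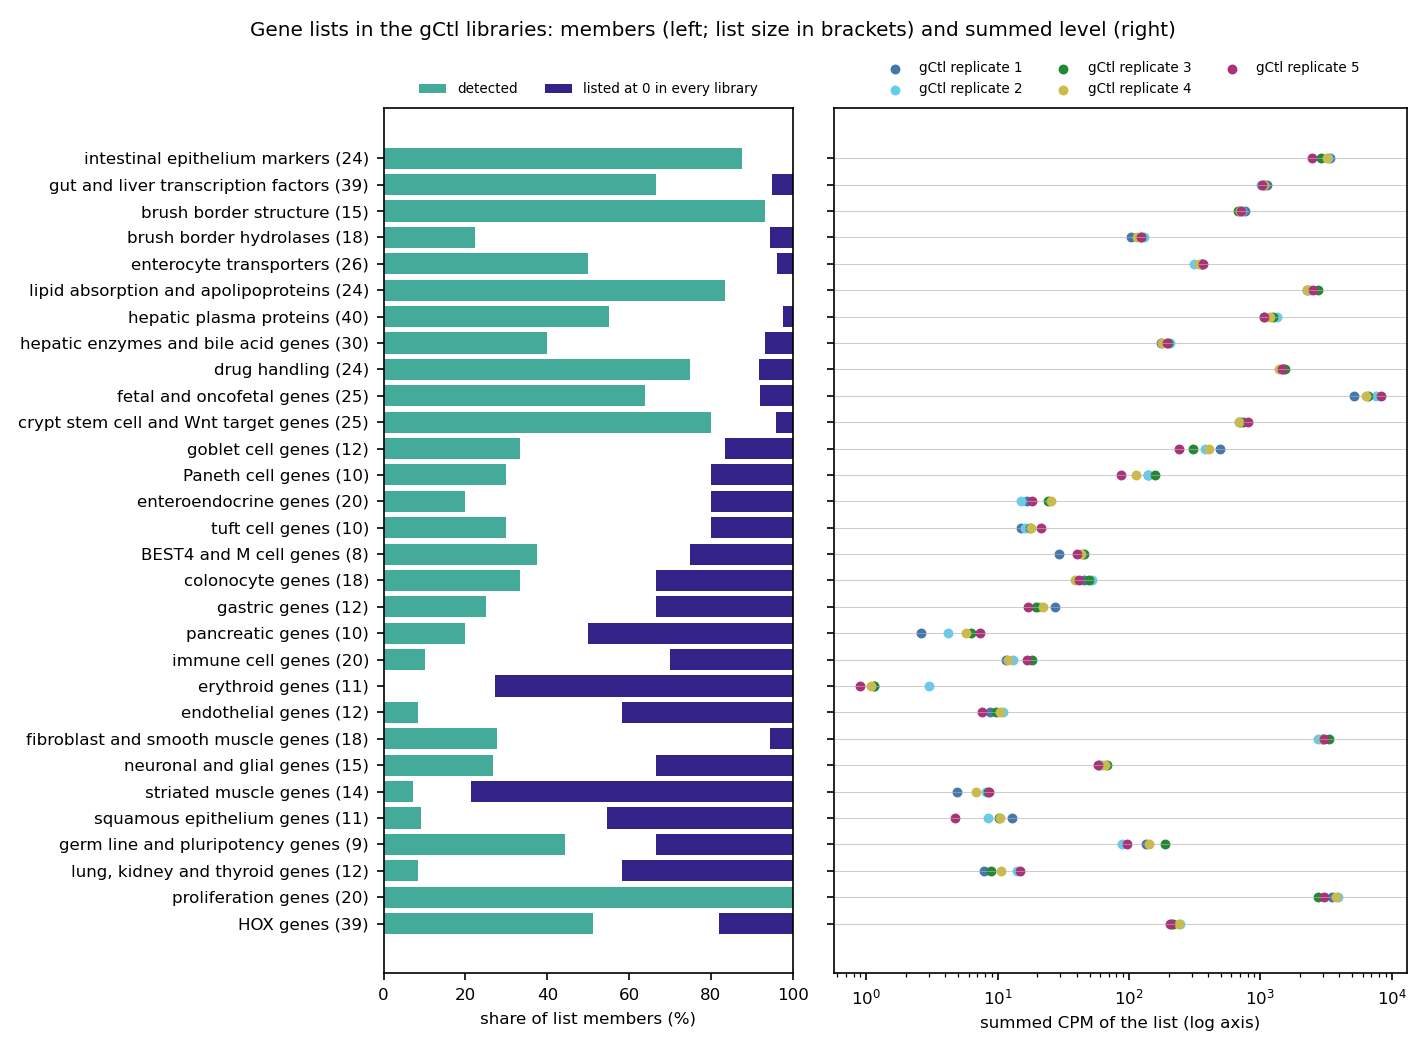
For each of the 30 gene lists, the left panel gives the share of members (%) detected in all 5 gCtl libraries and the share listed at 0 in every library, and the right panel gives the summed CPM in each library on a log axis. The proliferation list is detected in full, the erythroid list not at all, and the high sum of the fibroblast list comes from FN1.

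In each of the 10 pairs the chi-square of the counts over its degrees of freedom was between 4.28 and 14.4, so no pair agreed within counting noise, and each library was counted as 1 sample. Pearson's r of log2(CPM + 1) across detected genes, which are not independent replicates, was 0.954 to 0.981. The median absolute difference between a pair was 0.215 to 0.339 on the log2 scale, and 1.22% to 8.12% of detected genes lay 2-fold or more apart. By r and by the median difference, replicates 3 and 4 were the closest pair and replicates 1 and 5 the farthest. The common biological coefficient of variation was 0.175, and it was 0.141 without replicate 5. Among 8377 genes with a mean of at least 10 CPM, the median CV was 15%, and the median of the CV beyond counting was 12.3%.

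The first principal component held 43.1% of the variance and placed replicate 5 at 40.7, with the others between -26.2 and 1.43. The gap to its nearest neighbour was 0.586 of the range, within Dixon's limit of 0.71 for 5 samples. Replicate 5 was the lowest library in 32.1% of the genes with at least 10 CPM and the highest in 23.1%. It was not the shallowest library, having the largest total of the 5. Of the 15 genes with the largest CV beyond counting, it was the lowest library in 11, and in 9 of these replicate 1 was the highest.

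Genes of varied function made up that set. CYSTM1, which encodes a small membrane protein, had 68, 15.5, 29.95, 56.2 and 3.72 CPM. CAPN12, a calpain gene, had 399, 160.2, 189, 329 and 36 CPM, and it shares exon sequence with ACTN4 on the opposite strand, itself at 328 CPM. CD9, a tetraspanin gene, had 59.4, 19, 40.03, 49.7 and 6.17 CPM. In these 3 genes the order was the same, with replicate 1 highest, then replicates 4, 3 and 2, and replicate 5 lowest. TOMM6 (mitochondrial import), ID1 (a target of BMP signalling), UBE2C (mitotic ubiquitin transfer), PFN1 (profilin), SLC25A5 (an ADP/ATP carrier) and REPIN1 also had replicate 1 highest and replicate 5 lowest, at 10.9 to 24 CPM on average. CECR5 was lowest in replicate 5 and highest in replicate 4, and RP11-161H23.5, an antisense RNA across TUBA1C, lowest in replicate 5 and highest in replicate 2. H2AFZ, a histone variant gene, and the pseudogene FAM60DP were lower in replicate 5, which differed from the median of the other 4 by -2.44 and -2.67 in log2(CPM + 1).

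The genes that were higher in replicate 5 were fewer. PCSK5, a proprotein convertase gene, had 33.6, 34.7, 155, 39 and 181 CPM, so that replicates 3 and 5 stood above the other 3. The excess lay on 1 annotated transcript, PCSK5-003, at 128 and 161 CPM in replicates 3 and 5 and 4.79 to 18.7 CPM in the others, while its other transcripts summed to 16.3 to 28.9 CPM. HSPA1B, a heat shock gene with a near-identical copy, had 5.68, 9.77, 17.5, 7.79 and 27.7 CPM. HNRNPA3P6 had 14.6, 79.9, 13.6, 13.2 and 90.1 CPM, with replicates 2 and 5 high. It is a processed pseudogene of HNRNPA3, and the sum of both was steadier, at 291 ± 35.3 CPM, so the level of either copy is uncertain. SMG1P3, a pseudogene related to SMG1, had 2.67, 7.07, 5.12, 31.6 and 36.3 CPM, with replicates 4 and 5 high.

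**Figure D5:**
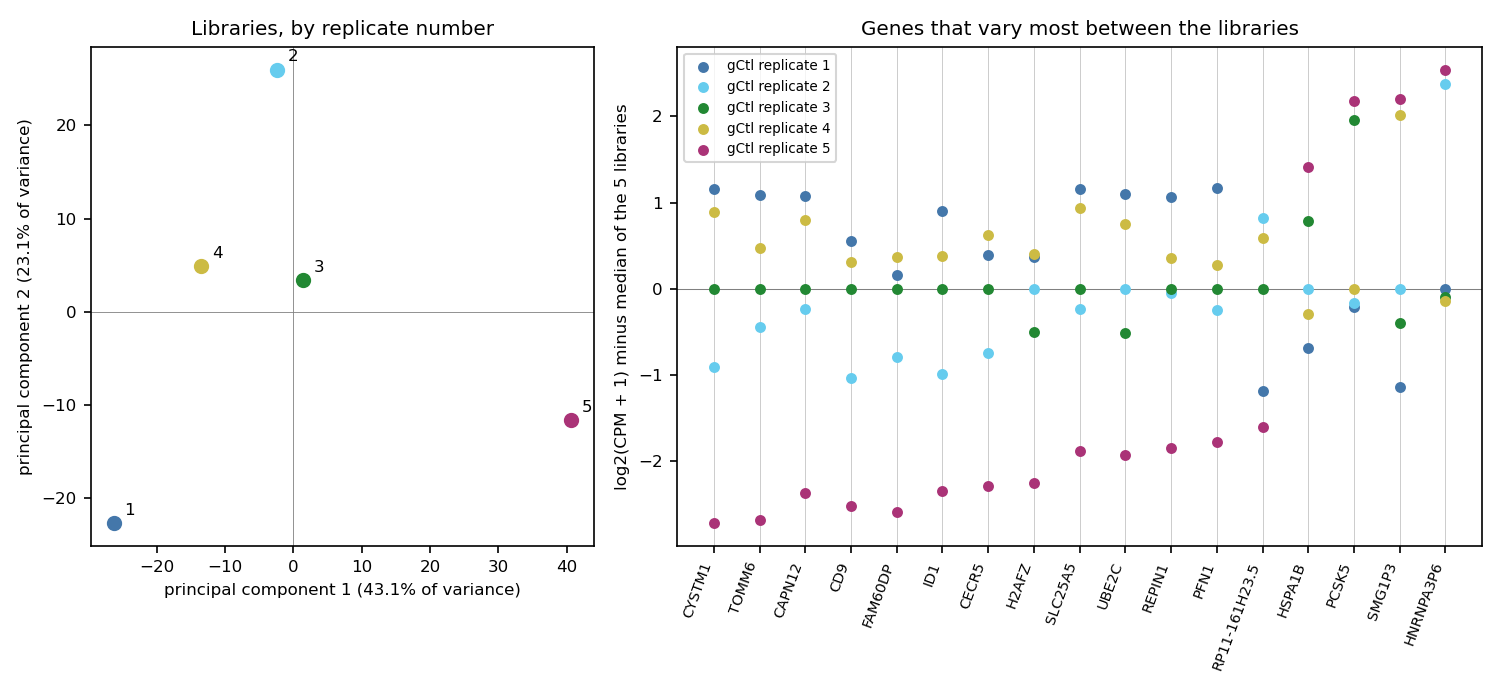
Left, the 5 gCtl libraries on the first and second principal components of log2(CPM + 1) over detected genes, labelled by replicate number. Right, log2(CPM + 1) of each library minus the median of the 5 for the genes that vary most, in which replicate 5 lies lowest for the genes from CYSTM1 to RP11-161H23.5 and highest for the last 4.

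The sums of some lists differed between replicate 5 and the other libraries, in part through single genes. For intestinal markers the sum in replicate 5 was 0.774 times the mean of the other 4, and 0.672 times without EPCAM. For goblet cell genes it was 0.61 times, and 0.938 times without AGR2, which made up 79.7% of that sum. For Paneth cell genes it was 0.634 times, and 0.757 times without SPINK1, at 83.2% of the sum. For fetal genes it was 1.29 times, and 1.03 times without IGF2, so the difference lay mostly in that gene. The ratio was 0.876 for proliferation genes and 1.14 for crypt and Wnt genes. It was 0.967 and 0.985 for the transcription factors and the brush border structure. Without replicate 5 the intestinal sum was 3193 CPM and the fetal sum 6428 CPM. The cause of these differences was not tested, and the labels give no handling that differs for replicate 5.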

How the data were processed

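Libraries were made with the Lexogen QuantSeq 3′ mRNA-Seq kit and sequenced from 1 end. The authors deposited estimated counts per transcript, made by pseudoalignment with Kallisto (version 42.5 in the submitters' processing notes) to 199169 transcripts of GENCODE release 24. The strand setting is not given in the sources used here. Gene values were sums over transcripts, without rounding, scaled by the library total (CPM). TPM was computed from the counts and the listed transcript lengths. Coordinates and exon overlaps came from GENCODE release 29 (GRCh38), and promoters from RefSeq (GRCh38.p14), matched by symbol. Samples were grouped by the GEO group label. No comparison with the guide libraries was made and no p-value computed.

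The members and gene lists were chosen with earlier results of these data known. Named genes were the 25 most abundant, VIL1, CDH17, APOA1 and CDX2, the 6 most abundant members of each list and those listed at 0, the 15 genes with the largest CV beyond counting at a mean of at least 10 CPM, and the 10 that differed most in replicate 5. Other genes, such as SI, ALPI and MUC2, were chosen after their values were seen, and a few items that the rule names are not reported here. Counting variance was taken as Poisson. Dispersion was estimated with edgeR 4.0.16 (TMM) and, as an alternative, DESeq2 1.42.0 in R 4.3.3 on rounded counts, and the scripts were tested on simulated data. The rest was run in Python 3.11.15 with pandas 2.3.3. Alternatives were TMM, DESeq2 size factors, TPM, totals without mitochondrial genes, other detection limits, thinning to the smallest total, and leaving out each library.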

Additional observations from a re-analysis of the deposited data

Results flagged for a closer look

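With 5 libraries, a value was singled out where the gap between 1 library and its nearest neighbour took up more than 0.71 of the whole range, which is Dixon's limit. Of 329 values checked (genes named here, list sums and library totals), 37 met this (11.2%), and chance alone flags about 1 group in 20. Of the genes among them, 21 were not detected in all 5 libraries, where a few counts decide the range. By library, replicates 1 to 5 were set apart in 5, 13, 8, 2 and 9 values.

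Among detected genes, the library set apart differed from gene to gene. Replicate 1 was the highest library for GUCA2A at 5.47 (others 1.53 to 2.5) and MISP at 15.4 (others 11 to 12.2) CPM. Replicate 1 was the lowest library for AHSG at 125 (others 167 to 182) and NOTCH2NL at 14.9 (others 23.7 to 27) CPM. Replicate 2 was the highest library for APOA2 at 276 (others 188 to 211), CDX2 at 65.5 (others 40.9 to 42.4) and PDZK1 at 55.3 (others 39.8 to 44) CPM. Replicate 2 was the lowest library for RNF43 at 50.4 (others 59.2 to 62.6) CPM. Replicate 3 was the highest library for COL6A3 at 11.9 (others 2.09 to 4.17) CPM. Replicate 3 was the lowest library for LGALS4 at 1.45 (others 2.55 to 2.75) and TUBA1C at 504 (others 674 to 726) CPM. Replicate 5 was the highest library for ASCL2 at 71 (others 55.5 to 58.1) and MYH11 at 26.3 (others 20.6 to 22.2) CPM. Replicate 5 was the lowest library for AC132217.4 at 562 (others 700.0 to 751) CPM.

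Among genes that were not detected in every library, most of these values rested on 5 or fewer counts. In CPM, replicate 1 stood highest for H19 (1.56). In CPM, replicate 2 stood highest for ALAS2 (0.767), CELA3A (0.383), DDX4 (0.383), ESAM (6.13), IVL (0.192), OLFM4 (2.49), SPRR1B (0.192) and TG (0.383). In CPM, replicate 3 stood highest for GC (0.18), ONECUT1 (0.902) and SI (0.361). In CPM, replicate 3 stood lowest for MMP7 (0.18). In CPM, replicate 4 stood highest for CDX1 (0.25). In CPM, replicate 4 stood lowest for DSG3 (0.594). In CPM, replicate 5 stood highest for CDH5 (0.529), CPA1 (0.352), GPA33 (0.529), HOXB13 (2.15), PAX2 (1.23) and SLC12A1 (0.705).

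The summed level of erythroid genes was 3.0 CPM in replicate 2 and 0.895 to 1.14 CPM in the other 4. Replicate 3 had 12745 protein-coding genes at 1 CPM or more, against 12489 to 12557 in the others. What sets these libraries apart was not tested.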

How the results depend on the processing

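Levels depended on the scale. In TPM, the 100 most abundant genes held 56.2% and the mitochondrial genes 26% of the total. The levels in TPM became 30.03 for VIL1, 39.3 for CDH17, 620.0 for APOA1, 14.7 for CDX2, 2509.8 for the intestinal epithelium markers, 60.03 for the brush border hydrolases, 2013 for the lipid and apolipoprotein genes, 993 for the hepatic plasma proteins, 2678 for the fetal and oncofetal genes and 1616 for the proliferation genes. With mitochondrial genes left out of the total, the 100 most abundant genes held 30.7%, and the levels in CPM became 196 for VIL1, 129 for CDH17, 577 for APOA1, 59.8 for CDX2, 3910.0 for the intestinal epithelium markers, 153 for the brush border hydrolases, 3151 for the lipid and apolipoprotein genes, 1520.4 for the hepatic plasma proteins, 8765 for the fetal and oncofetal genes and 4337 for the proliferation genes. Over genes at 10 CPM in all 5 libraries, the median absolute log2 difference between pairs was 0.206 instead of 0.27. The number of detected genes was 11117 at 3 CPM, 19814 at 1 CPM in at least 1 library and 14330 with each library thinned to the smallest total. Leaving out 1 library at a time, the number detected was 14379 to 14632, the common biological coefficient of variation 0.141 to 0.191 and the mitochondrial share 21.7% to 23.1%. Of 402 other levels, 196 moved by more than 1 SD in TPM, and of 390 levels 155 moved without the mitochondrial genes in the total. None of 402 moved with TMM factors and none of 378 with DESeq2 size factors. None of 402 moved with any 1 library left out either. Dropping 1 of 5 values cannot shift their mean by 1 SD, so that result says nothing about the libraries. Some orders of genes turned in TPM: APOB was above APOA1 in CPM and below it in TPM, and so were VIL1 against CDH17 and ALB against AFP. No paired analysis was possible because the labels give no replicate numbers and only 1 group was used. With 5 libraries of these totals, levels near 1 CPM rest on a handful of counts.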

Other observations

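Beyond the 25 most abundant genes, chaperones and nucleolar proteins made up much of the next rank of nuclear coding genes, which were chosen for mention after their values were seen. The mitochondrial chaperonin gene HSPD1 was at 1776 ± 215 CPM and shares exon sequence with HSPE1 on the opposite strand. The HSP90 genes HSP90AB1, HSP90AA1 and HSP90B1 were at 1735 ± 201 CPM, 1644 ± 112 CPM and 1410.3 ± 91.2 CPM. NPM1 and NCL, which encode the nucleolar proteins nucleophosmin and nucleolin, were at 1562 ± 266 CPM and 1507 ± 135 CPM. PTMA, the gene of prothymosin alpha, was at 2624 ± 385 CPM, and KPNB1, a nuclear import receptor gene, at 1778 ± 106 CPM.

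The genes around IGF2 on chromosome 11, a stretch known for imprinting, differed widely in level, and they too were chosen after the values were seen. KCNQ1OT1, the noncoding RNA read from within KCNQ1, was at 933, 1183, 1450.2, 1189 and 1128 CPM, with replicate 1 the lowest. KCNQ1 itself was at 0.349 CPM, the cell cycle inhibitor gene CDKN1C at 1.17 CPM and H19 at 0.387 CPM. PHLDA2 was at 58.5 ± 17.2 CPM, NAP1L4 at 305 ± 35.7 CPM, CD81 at 114 ± 10.05 CPM and SLC22A18 at 14.5 ± 2.41 CPM. The order depended on the scale, since KCNQ1OT1 was above these genes in CPM and below them in TPM. In TPM it was at 16.5, against 28 for SLC22A18, 78.5 for PHLDA2, 96 for CD81 and 290 for NAP1L4. These files do not tell the parental copies apart.

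The entry of RN7SL1, the RNA of the signal recognition particle, was at 27.3, 25.3 and 40.4 CPM in replicates 3 to 5. It was under 1 estimated count in replicates 1 and 2. Such a fraction is part of a read divided between annotated entries, and other entries of like sequence were not examined. The values therefore do not show that the RNA was missing from those libraries.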
